A study of Mus musculus with 12 samples.

Results

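Peaks deep inside long genes were examined in 6 MACF1 chromatin immunoprecipitation (ChIP) libraries. A peak counted as deep when it was shorter than 3000 bp and its summit lay in a protein-coding gene longer than 200 kb, more than 20 kb from both ends of that gene, on chromosomes 1 to 19. In all, 5414 of the 46669 deposited peaks met the rule. They lay in 944 long genes, 4.57% of the 20661 protein-coding genes of these chromosomes in the RefSeq table of GRCm38.p6, with a median length of 326 kb. At the edges of the rule, the shortest gene inside it measured 200.1 kb and the longest outside it 199.9 kb, while 98 peaks of knockdown 1 at otherwise matching positions were 3000 bp or wider and were left out.

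The cells were MC3T3-E1, a mouse osteoblast line, and all libraries were made with an antibody against MACF1, a large spectraplakin protein that joins actin filaments to microtubules. Control cells were set against cells with MACF1 knockdown to compare where the antibody recovered DNA, with 3 immunoprecipitates per group, labelled 1, 2 and size3, each with its own input. The labels give neither the knockdown reagent nor the meaning of size3, list 2 antibody lots without assigning them to libraries, and name no separate cultures. The p-values therefore reflect the spread between the libraries, which may be technical. The protocol in the labels starts from lysis in RIPA buffer and sonication to fragments of 200 to 500 bp.

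Most of the length of a long mammalian gene is intron. Introns of such genes hold enhancers, alternative promoters and, at places, the starts of other genes, but also long stretches with none of these. Proteins that bind DNA at regulatory elements are typically found near gene starts and at enhancers. Many of the longest genes encode adhesion proteins, receptors and channels of neurons, and several are known for breakage at common fragile sites. Exon and intron positions were not used here, so a deep peak is described by its distance from gene ends and annotated starts.

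A small number of deep peaks covered an annotated transcription start inside the long gene. RefSeq windows for chromosomes 1 to 17 and 19 placed 1146 starts in the deep intervals, of which 346 belonged to the long gene itself. Peaks of at least 2 libraries covered 6 of them. The 250 bases before 4 of these starts are shown 5′ to 3′ from the RefSeq promoter windows of GRCm38.p6, the 3 with the most CG dinucleotides and the 1 with the fewest, because the libraries differed in how often they covered CG-rich starts. Capitals mark each CG, which reads the same on both strands.
Rbms1, chr2:60881439-60881688, minus strand: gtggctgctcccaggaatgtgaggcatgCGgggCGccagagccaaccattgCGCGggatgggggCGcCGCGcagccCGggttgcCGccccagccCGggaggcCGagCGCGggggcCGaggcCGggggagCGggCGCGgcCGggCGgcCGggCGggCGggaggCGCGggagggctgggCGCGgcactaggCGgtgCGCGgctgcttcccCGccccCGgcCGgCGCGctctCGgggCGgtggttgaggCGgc
Supt3, chr17:44776916-44777165, plus strand: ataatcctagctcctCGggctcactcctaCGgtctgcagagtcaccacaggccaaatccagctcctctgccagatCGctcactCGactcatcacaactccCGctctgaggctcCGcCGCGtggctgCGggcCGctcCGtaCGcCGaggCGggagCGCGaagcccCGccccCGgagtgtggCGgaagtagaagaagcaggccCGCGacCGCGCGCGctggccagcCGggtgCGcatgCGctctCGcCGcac
Zfhx3, chr8:108714394-108714643, plus strand: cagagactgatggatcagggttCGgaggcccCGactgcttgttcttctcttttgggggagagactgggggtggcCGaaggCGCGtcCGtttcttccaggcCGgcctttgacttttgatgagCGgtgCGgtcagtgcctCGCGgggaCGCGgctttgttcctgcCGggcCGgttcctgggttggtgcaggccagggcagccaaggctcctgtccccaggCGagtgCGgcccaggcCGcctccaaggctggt
D7Ertd443e, chr7:134376832-134377081, minus strand: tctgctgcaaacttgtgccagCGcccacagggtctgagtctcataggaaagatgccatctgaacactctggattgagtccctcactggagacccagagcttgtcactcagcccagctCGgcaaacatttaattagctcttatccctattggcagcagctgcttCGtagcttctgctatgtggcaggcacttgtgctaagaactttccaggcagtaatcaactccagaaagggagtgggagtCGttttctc

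These windows held 38, 30, 18 and 4 CG dinucleotides and had a GC content of 82.4%, 68.8%, 66.0% and 50.8%. Supt3, which encodes a subunit of the SAGA coactivator complex, starts inside Runx2, the gene of the transcription factor that directs osteoblast differentiation. Knockdown 1 had a peak over the Supt3 start at chr17:44776668-44777863 with 90 reads and a fold enrichment of 3.27, and knockdown size3 had one at chr17:44776706-44777234 with 15 reads and a fold enrichment of 11.6. The fold enrichment of a peak is the authors' value, the reads at its summit over the local background of the input, and is not comparable between lists. Both peaks covered the whole printed window.

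The internal start of Zfhx3, a zinc finger homeobox factor, lay under peaks of knockdown 1 (132 reads, fold 4.69) and knockdown size3 (15 reads, fold 8.02). At Rbms1, which encodes an RNA-binding protein, the peaks belonged to control size3 (15 reads, fold 6.90) and knockdown 1 (104 reads, fold 6.48). That of control size3 ended at position 60881468, so it reached only the part of the printed window nearest the start. D7Ertd443e had peaks of knockdown 1 (41 reads, fold 7.67) and knockdown size3 (19 reads, fold 8.40). The other two starts, in Dpp6, a potassium channel subunit, and Anks1b, a synaptic scaffold protein, were also covered in knockdown 1 and knockdown size3.

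Deep peaks were more numerous in every knockdown library than in any control library, as were peaks of all kinds. Control 1, 2 and size3 held 159, 26 and 308, and knockdown 1, 2 and size3 held 2247, 622 and 2052. On the log2 scale the group means were 6.76 ± 1.85 (SD, n = 3) and 10.5 ± 1.03 (SD, n = 3), a difference of 3.71 or 13.1-fold between geometric means, with exact two-sided permutation p = 0.1, the smallest p that 20 assignments give. Between the libraries labelled 1 the ratio was 14.1, between those labelled 2 it was 23.9, and the size3 pair gave 6.66. The direction reversed when each list was reduced to an equal number of its best-scoring peaks: control 1, 2 and size3 then had 33, 26 and 25 deep peaks and knockdown 1, 2 and size3 had 3, 18 and 12, a difference of -1.68 (exact permutation p = 0.1). Peaks under 3000 bp on chromosomes 1 to 19 then numbered 167, 159 and 194 for control 1, 2 and size3 and 90, 151 and 188 for knockdown 1, 2 and size3, so knockdown 1 had fewer peaks that could be deep.

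Depth and duplicates differed between the libraries and their part in these numbers was not tested. Without duplicates, control 1, 2 and size3 had 26196138, 33085606 and 10698067 reads and knockdown 1, 2 and size3 had 18454330, 5575205 and 8175173, with redundant rates of 0.25, 0.16 and 0.01 against 0.51, 0.65 and 0.02. Divided by these reads, deep peak numbers still did not overlap between the groups, and per 1000000 reads they were 6.07, 0.786 and 28.8 against 122, 112 and 251. The whole lists, with 772, 198 and 2196 against 21398, 4513 and 17592 peaks, did not overlap per read either. The gap was thus not particular to deep peaks. The caller's false discovery rate, the share of calls found with immunoprecipitate and input swapped, was 100% for all 159 and 26 deep peaks of control 1 and 2 and for 99.2% of those of knockdown 2. It was at most 5% for 2244 deep peaks (99.9%) of knockdown 1, for 1126 (54.9%) of the size3 knockdown and for 2 (0.322%) of knockdown 2, and for none of the 3 control lists. Among the other peaks under 3000 bp on these chromosomes the shares were 99.3%, 58.1% and 0.794%, and 0% in each control list. The rates thus describe the whole lists and not deep peaks alone.

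As a share of all peaks under 3000 bp on the same chromosomes, deep peaks were less common in 2 of the knockdown libraries. The share was 21.5% in control 1, 16.4% in control 2 and 14.1% in control size3, with Wilson 95% intervals of 18.7 to 24.7, 11.4 to 22.9 and 12.7 to 15.6. Knockdown 1, 2 and size3 had 11.7%, 14.1% and 11.8%, with intervals of 11.3 to 12.2, 13.1 to 15.2 and 11.3 to 12.2, which cover counting error only. The deep intervals made up 362 Mb, or 14.7%, of the 2460 Mb that these chromosomes span up to their last gene or peak. Knockdown 1 and knockdown size3 lay below that share and control 1 above it, while the intervals of control 2, control size3 and knockdown 2 included it.

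**Figure D1:**
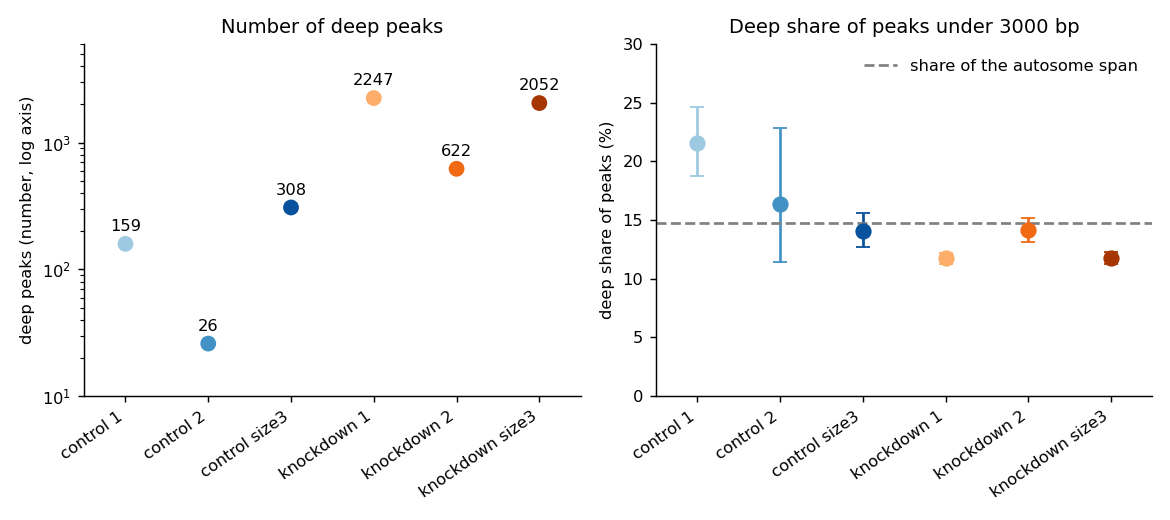
Number of deep peaks in each library on a log axis (left) and deep peaks as a percentage of all peaks under 3000 bp on chromosomes 1 to 19 (right). Bars are Wilson 95% intervals and the dashed line is the 14.7% of the chromosome span that is deep. Numbers do not overlap between groups, whereas shares do.

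Mean shares were 17.3% ± 3.83 (SD, n = 3) in control and 12.5% ± 1.38 (SD, n = 3) in knockdown libraries. The difference of -4.78 percentage points had an exact two-sided permutation p = 0.2, where 0.1 is the smallest p that 20 assignments give. Control size3 lay below knockdown 2, so the groups overlapped. The difference widened to -9.12 points with lists of equal length (exact permutation p = 0.1). It narrowed to -2.67 without control 1 (exact permutation p = 0.3). Weighting the deep share of each chromosome by the library's own peaks gave 15.4%, 15.3% and 14.9% for control 1, 2 and size3 and 14.6% for each knockdown library. Less these values, the difference between groups was -4.14 points (exact permutation p = 0.2). This weighting was added after seeing the data.

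Deep peaks resembled the other peaks of their list in control libraries and knockdown 2, and were narrower in the other two. Median width was 720 bp for deep and 731 bp for other peaks in control 1, 864.5 and 912 in control 2, 642 and 651 in control size3 and 359 and 359 in knockdown 2. In knockdown 1 it was 767 against 945 bp, with a median of 32 against 44 reads and a fold of 5.82 against 5.09. Knockdown size3 gave 588 against 657 bp, 15 against 17 reads and a fold of 8.75 against 8.09. Deep peaks of these 2 lists were thus narrower, held fewer reads and had a higher fold enrichment by median, a description with no test.

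Where the deep intervals ended, peak density changed in 2 libraries. Within the 20 kb next to the ends of the same long genes, knockdown 1 had 15.4 peaks per Mb against 6.21 in the deep intervals, and knockdown size3 had 12.5 against 5.67. Control size3 had 1.05 against 0.851 and knockdown 2 had 1.61 against 1.72. Control 1 had 9 peaks next to gene ends, 0.241 per Mb against 0.439 deep, and control 2 had none. Of all peaks in long genes, deep ones made up 94.6%, 100% and 88.8% for control 1, 2 and size3 and 79.7%, 91.2% and 81.5% for knockdown 1, 2 and size3, where 90.7% of the bases are deep. The difference of group means, 84.1% ± 6.20 against 94.5% ± 5.62 (SD, n = 3 each), was -10.3 points (exact two-sided permutation p = 0.2).

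For 707 long genes the strand was known, and the start side could be told from the other end. In the 5 kb at the start, knockdown 1 had 165 peaks, or 46.7 per Mb, and knockdown size3 had 109, or 30.8 per Mb. The values were 7.36 and 7.31 per Mb at 20 to 50 kb from the start, and 4.82 and 4.45 per Mb more than 100 kb from both ends. On the side of the other end the same 2 libraries had 9.40 and 7.88 per Mb at 20 to 50 kb and 12.5 and 14.5 per Mb in the last 5 kb. Knockdown 2 had 4 peaks in the first 5 kb, 1.13 per Mb against 1.73 in the middle, and the 3 control libraries had none there. Between 20 and 100 kb the density did not fall steadily: at 50 to 100 kb knockdown 1 had 7.84 per Mb on the start side and 7.62 on the other, and knockdown size3 had 6.08 and 8.56. The middle zone draws more of its bases from the longest genes.

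**Figure D2:**
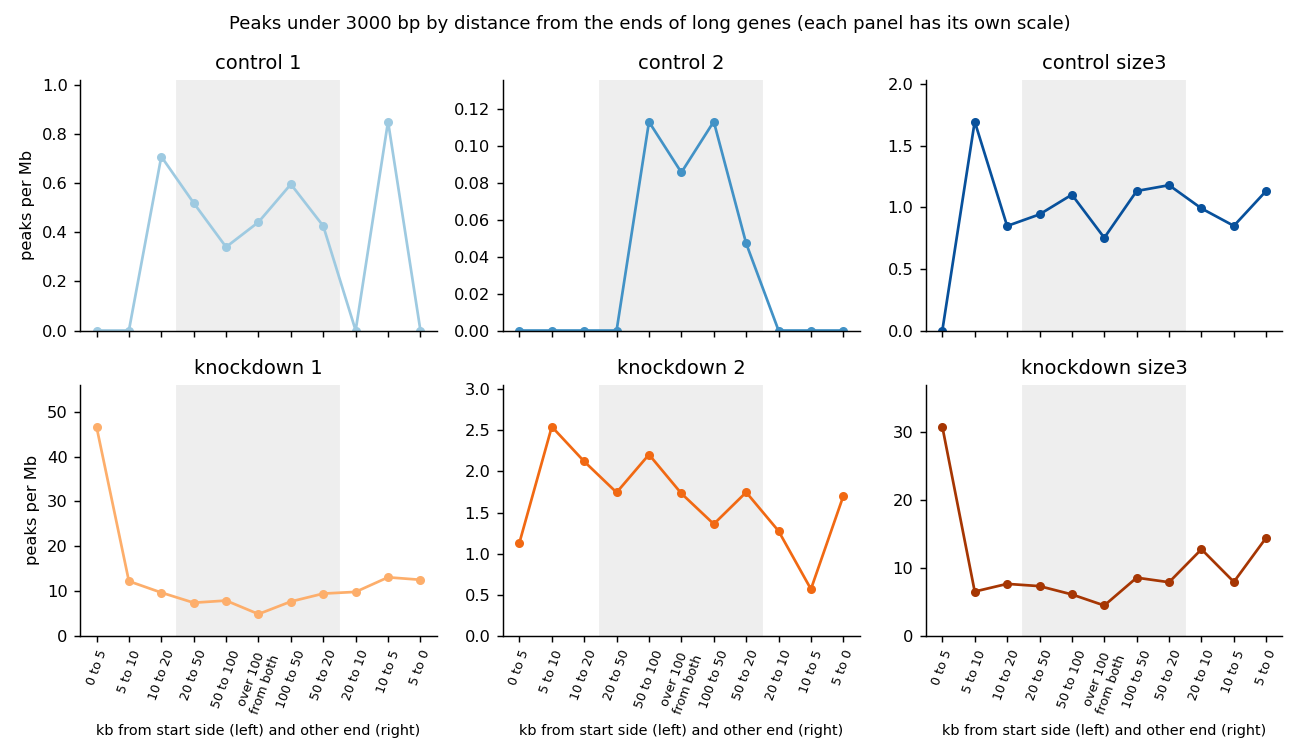
Peaks under 3000 bp per Mb by distance in kb from the start side (left in each panel) and the other end (right) of 707 long genes with a known strand, 1 panel per library, each with its own vertical scale. Grey marks the deep zone. Knockdown 1 and knockdown size3 have 46.7 and 30.8 peaks per Mb in the first 5 kb and 4.82 and 4.45 in the middle, and the other panels show no such rise at the start.

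Near annotated starts inside the deep intervals, control size3 stood with knockdown 1 and knockdown size3. Of the bases of the deep intervals, 0.602% lay within 1 kb of such a start. Deep summits within 1 kb of a start numbered 60 of 2147 in knockdown 1 (2.79%, Wilson 95% interval 2.18 to 3.58), 48 of 1978 in knockdown size3 (2.43%, 1.84 to 3.20) and 9 of 305 in control size3 (2.95%, 1.56 to 5.51). Knockdown 2 had 2 of 608 (0.329%, 0.0903 to 1.19), control 1 had 1 of 158 (0.633%, 0.112 to 3.50) and control 2 had 0 of 26 (0%, 0 to 12.9). The first 3 shares lay above the share of bases and the intervals of knockdown 2, control 1 and control 2 included it. Peaks outside the deep intervals were within 1 kb of a start more often in knockdown 1 (15.2%) and knockdown size3 (12.3%). Control size3 lay well below both there, at 4.53%. Knockdown 2 had 1.08%, control 1 had 0.694% and control 2 had 0%.

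CG-rich starts were covered most often. Among the 73 internal starts whose 300-base window held 20 or more CG, knockdown 1 peaks covered 21 (28.8%), knockdown size3 peaks 6 (8.22%) and control size3 peaks 1 (1.37%). Of the 969 windows with fewer than 10 CG, the same libraries covered 23 (2.37%), 30 (3.10%) and 1 (0.103%). Knockdown 1 covered CG-rich starts at a higher rate than CG-poor ones, whereas the 2 rates lay closer together in knockdown size3. Control 1, control 2 and knockdown 2 covered none of the 1146 starts.

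Longer genes held deep peaks at a lower density in 3 libraries. Per Mb of deep interval, knockdown 1 had 8.74 deep peaks in the 412 genes of 200 to 300 kb, 7.75 in the 317 of 300 to 500 kb, 4.99 in the 160 of 500 to 1000 kb and 2.67 in the 55 genes over 1000 kb. Knockdown size3 fell likewise from 9.02 to 6.57, 4.41 and 2.20, and control size3 had 1.15, 1.05, 0.610 and 0.535. Knockdown 2 was nearly level at 1.82, 1.72, 1.79 and 1.51. Control 1 went the other way with 0.364, 0.404, 0.410 and 0.619, from 30, 44, 41 and 44 peaks. Control 2 had only 5 to 8 peaks in each class.

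**Figure D3:**
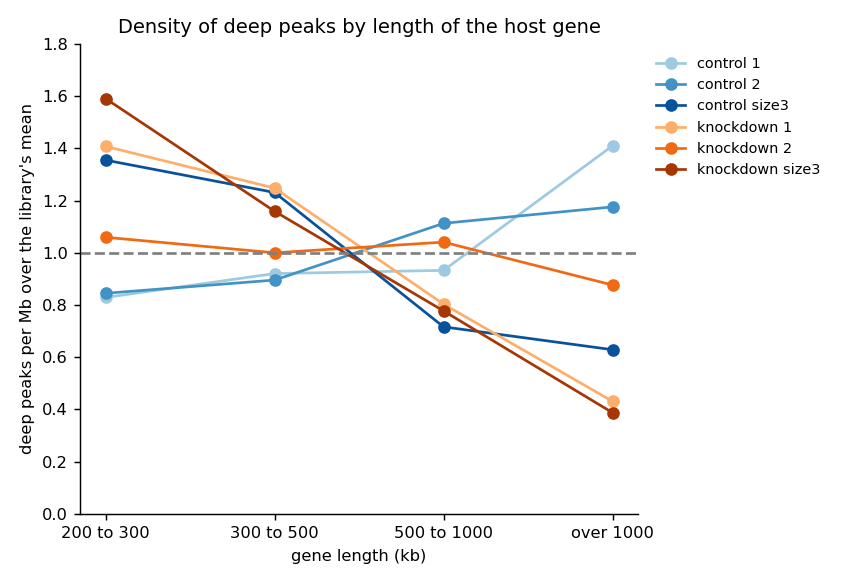
Deep peaks per Mb in 4 classes of gene length (kb), divided by the library's mean over all deep intervals, 1 line per library, with a dashed line at the mean. Knockdown 1, knockdown size3 and control size3 decline to 0.43, 0.39 and 0.63 in genes over 1000 kb, knockdown 2 reaches 0.88, and control 1 and control 2 rise to 1.41 and 1.18.

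Deep peaks of the control libraries were gathered on a few chromosomes, as were all their peaks under 3000 bp. Of 738 such peaks in control 1, chromosomes 5 and 6 held 124 and 184, and chromosomes 7 and 8 held 2 each. In control size3 these chromosomes held 359, 276, 38 and 32 of 2189. The pattern is thus one of the whole lists and not particular to deep peaks. Chromosomes 5, 6, 10, 17 and 19, picked after seeing the values, hold 25.5% of the deep bases. They carried 122 of 159 deep peaks of control 1 (76.7%), 17 of 26 of control 2 (65.4%) and 171 of 308 of control size3 (55.5%). In knockdown 1, 2 and size3 they carried 31.5%, 43.9% and 36.2%. The densest chromosome of control 1 was 19, at 4.20 times the library mean, closely followed by 6 with 50 peaks, and that of control size3 was also 19, at 3.33 times. Chromosome 9 held 0, 0 and 1 deep peaks in the 3 control libraries and 92, 15 and 52 in the knockdown libraries. Its peaks under 3000 bp of all kinds numbered 19, 13 and 27 against 914, 112 and 498. Chromosome 13 was the sparsest in each knockdown library, with 43, 6 and 15 deep peaks at 0.44, 0.22 and 0.17 times the mean. Which property of the chromosomes or of the inputs moved with these numbers was not tested.

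**Figure D4:**
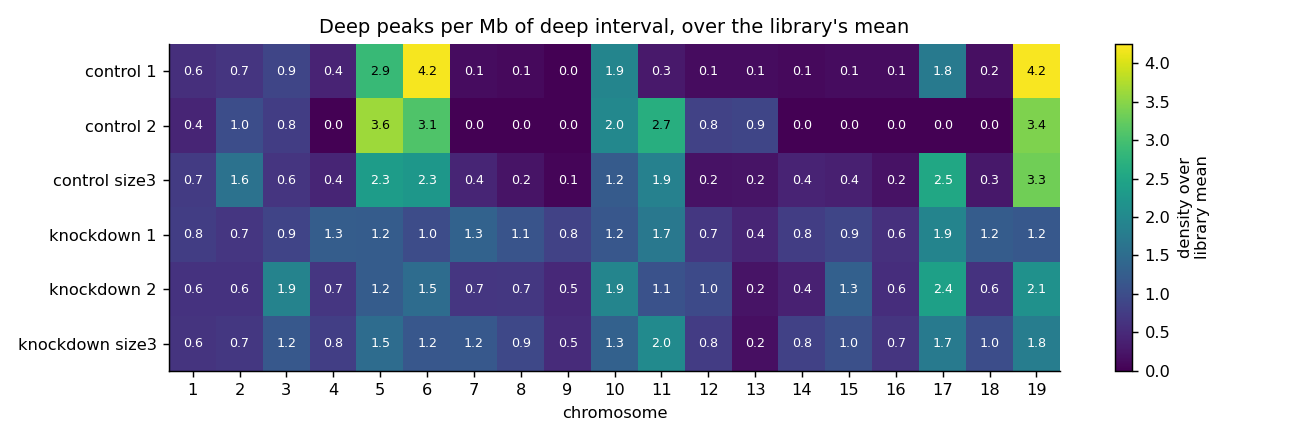
Deep peaks per Mb of deep interval on each chromosome, divided by the library's mean, for 6 libraries (rows) and chromosomes 1 to 19 (columns). Brighter cells are denser, with 4.20 for chromosome 19 in control 1 as the highest, and chromosome 13 is dark in all 3 knockdown rows.

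Of the 944 long genes, most had a deep peak in at least 1 library. Deep peaks marked 107, 24 and 216 genes in control 1, 2 and size3, which is 11.3%, 2.54% and 22.9% of all long genes. The knockdown libraries marked 697, 384 and 650, or 73.8%, 40.7% and 68.9%. The difference of mean log2 gene number was 2.76, or 6.79-fold between geometric means (exact two-sided permutation p = 0.1, n = 3 against 3), but with lists of equal length, added after seeing the data, the control libraries marked 24 genes each and the knockdown libraries 3, 17 and 12, a difference of -1.50 (exact permutation p = 0.1). Only 97 genes had no deep peak, 329 had one in exactly 2 libraries and 6 in all 6. At least 2 control libraries marked 56 genes (5.93%) and at least 2 knockdown libraries 649 (68.8%).

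Per gene, counts were low in most libraries. The median long gene had 2 deep peaks in knockdown 1, 1 in knockdown size3 and 0 in the other 4. Genes with 3 or more numbered 9, 0 and 19 in the control and 348, 52 and 312 in the knockdown libraries, in the order 1, 2 and size3. The 10 genes with the most peaks held 25.8% of the deep peaks of control 1, 14.3% of those of control size3 and 6.61%, 9.81% and 6.89% of those of knockdown 1, 2 and size3. For this share a peak was counted once for each of its host genes. This share moved with the number of deep peaks in a list, so it was not compared between groups.

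Asic2, an acid-sensing ion channel gene of 1088 kb on chromosome 11 (80880163 to 81968396), had the most deep peaks of all, 43. Its peaks numbered 0, 0 and 4 for control 1, 2 and size3 and 18, 2 and 19 for knockdown 1, 2 and size3, and the same order is used for the genes that follow. Sdk1, which encodes an immunoglobulin-type adhesion protein (chromosome 5, 141241497 to 142215586), had 0, 0 and 2 against 13, 0 and 21. Per Mb of deep interval, Asic2 had 17.2 in knockdown 1 and 3.82 in control size3, where the means over all long genes were 6.21 and 0.851, so both libraries lay above their own mean there. Camta1, a calmodulin-binding transcription activator gene (chromosome 4, 151059523 to 151861768), had no control peak and 20, 0 and 13 knockdown peaks. Cdh23, which encodes a cadherin of the hair-cell tip link (chromosome 10, 60302748 to 60696513), held 0, 0 and 3 against 13, 0 and 12. The adhesion gene Cdh13 (chromosome 8, 118140017 to 119324929) was uneven between the 2 longest lists, with 19 in knockdown 1 and 4 in knockdown size3.

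Arhgap26, a gene of a GTPase-activating protein, had 0, 0 and 1 against 10, 1 and 14. A pair of genes linked to microtubules showed different patterns. Nav2, a neuron navigator gene (chromosome 7, 48959063 to 49610090), had 0, 0 and 1 against 15, 0 and 8, whereas Nav3 (chromosome 10, 109681260 to 110455722) had 3, 0 and 0 against 4, 8 and 4 and led knockdown 2 together with Grm8, a metabotropic glutamate receptor gene. Knockdown 2 and control 1 thus had peaks in Nav3 and none in Nav2.

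Ccser1 (chromosome 6, 61179960 to 62382863), a gene at a common fragile site, had more deep peaks in control 1 than in the other control libraries. It held 6, 2 and 0 control and 5, 5 and 1 knockdown peaks. The 6 peaks of control 1 had fold enrichments of 3.57 to 5.71 and 24 to 39 reads, beside a median fold of 5.35 for the deep peaks of that list. They lay between 138 and 553 kb from the lower-coordinate end. All 4 libraries labelled 1 or 2 marked the gene, and of the size3 pair only the knockdown library did.

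**Figure D5:**
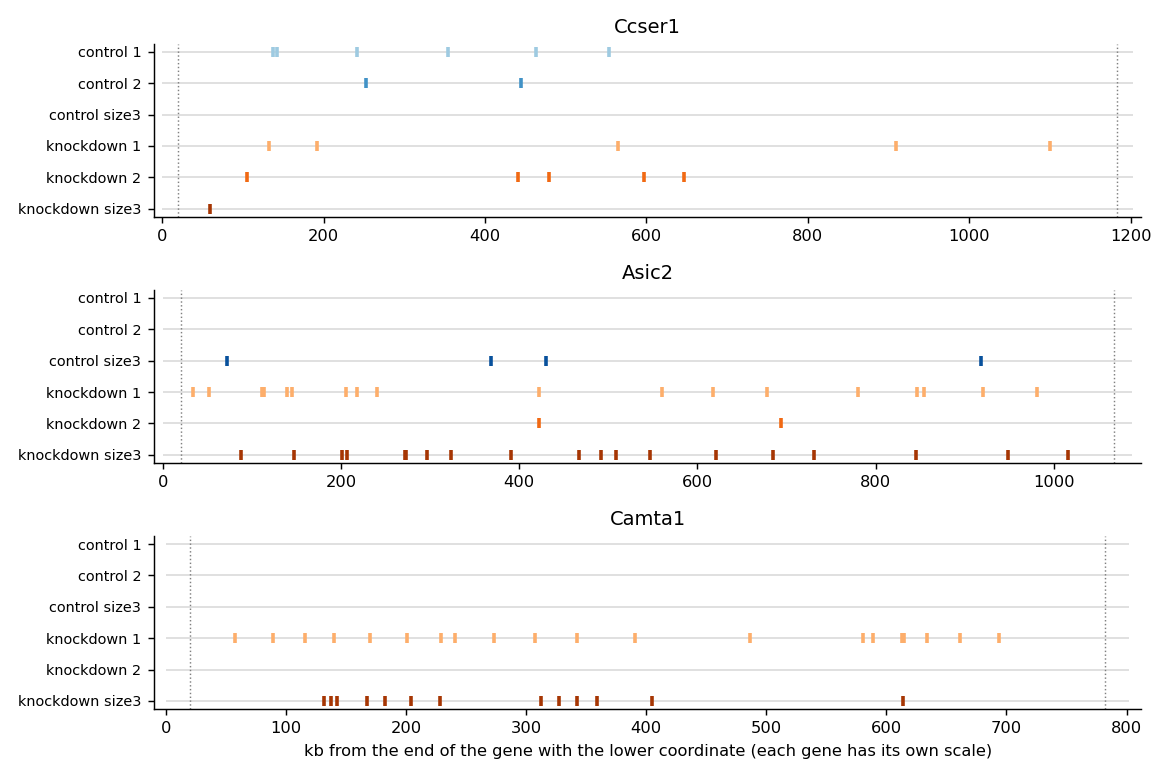
Positions of deep peaks in Ccser1, Asic2 and Camta1 in each library, in kb from the end with the lower coordinate; each tick is 1 peak summit and dotted lines mark 20 kb from each end. Control 1 has 6 ticks in Ccser1 and none in Asic2 or Camta1, where knockdown 1 has 18 and 20 and knockdown size3 has 19 and 13.

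Per Mb of deep interval, shorter members led. Tns1, which encodes the focal adhesion protein tensin, had 91.8 deep peaks per Mb over all libraries, from 4 in knockdown 1 and 12 in knockdown size3. Rap1gap2, a GTPase-activating protein gene for Rap1, reached 80.0 per Mb with 1 peak in control size3, 3 in knockdown 1 and 11 in knockdown size3. Cdh23 followed with 79.1, then the spindle checkpoint gene Mad1l1 and the zinc finger gene Zfp423 with 76.9 each. Prdm16, a regulator of brown fat identity, had 71.1 per Mb from 11 peaks in knockdown 1 and 9 in knockdown size3. Among these 6 genes no peak came from control 1, control 2 or knockdown 2. At the other end, Dcc, a netrin receptor gene of 1098 kb, Epha6, an ephrin receptor gene of 969 kb, and Pcdh9, a protocadherin gene of 879 kb, had no deep peak in any library, and nor did Sugct and Cntnap5b.

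All 3 control libraries had a deep peak in 7 genes, and all 3 knockdown libraries in 246. Prkg1, which encodes a cGMP-dependent protein kinase (chromosome 19, 30564487 to 31765268), led the first with 3, 1 and 5 control and 2, 4 and 4 knockdown peaks. Ptprt, a receptor tyrosine phosphatase gene, had 1, 1 and 3 against 4, 1 and 7, and Ppargc1a, the gene of the coactivator PGC-1 alpha, had 1, 1 and 1 against 3, 2 and 2. Galnt17, Grm7 and Ldb2 also had peaks in every library, while Pcsk5 had them in every library but knockdown size3. No merged region was called in more than 3 libraries, so the libraries that marked these 7 genes did not all meet at 1 place. In Pcsk5, control 1 and control 2 shared a region at chr19:17501486-17502769, with folds of 5.71 and 6.36.

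At the level of regions, 5114 of 5261 merged deep regions (97.2%) came from 1 library. The other peaks of these lists were not merged or compared in this way. Low overlap can therefore not be called particular to deep peaks. Overlaps of at least 1 bp joined 141 regions in 2 libraries and 6 in 3. By count the largest overlap was that of knockdown 1 with knockdown size3, 118 peaks, which is 5.25% of the first list and 5.75% of the second. Control 1 and control 2 shared 6, which is 3.77% of the first and 23.1% of the second, the largest share of any list. Knockdown 2 shared 4 deep peaks with knockdown 1 and 2 with knockdown size3. It shared 6 of its 622 with control 1, 3.77% of the latter, and 5 with control 2, 19.2% of the latter. Control 1 overlapped neither knockdown 1 nor knockdown size3 at any deep peak.

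In all, 124 regions were called in at least 2 knockdown libraries and 7 in at least 2 control libraries. The first count fell to 2 without knockdown 1 and to 4 without knockdown size3, so it rested on that pair. The second was 0 when control 1 was left out and 1 when control 2 was. With peaks of a score of at least 70, where the score is −log10 of the caller's p-value times 10, the counts were 18 and 4.

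Knockdown 1 and knockdown size3 had 563 long genes in common, mostly with peaks at different places. These were 80.8% of the genes of knockdown 1, where knockdown size3 marked 68.9% of all long genes, and 86.6% of those of knockdown size3, where knockdown 1 marked 73.8% of all. Across the 944 genes, their deep peaks per Mb had a Spearman correlation of 0.64 and a Pearson correlation of 0.59, a description over genes that share libraries and lengths. Between knockdown 1 and knockdown 2, the Spearman correlation was -0.01. In Asic2, 1 of 18 peaks of knockdown 1 overlapped one of the 19 of knockdown size3. Camta1 had 3 overlaps among 20 and 13 peaks, and Cdh13, Nav2 and Mad1l1 had none. The overlapping peaks of knockdown 1 were wider than its others, with a median of 954 against 757 bp and 40.5 against 31 reads.

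Among regions of this pair, the best combined rank in fold enrichment was in Asic2 at chr11:81085963-81086519, with a fold of 9.09 from 24 reads in knockdown 1 and of 12.7 from 12 reads in knockdown size3. Cadps, a gene of vesicle release, had another high-ranked region at chr14:12540980-12541604 with folds of 8.33 and 12.7. Other regions among the best ranked were in Dpyd, Myo1d, Suclg2, Nsmce2, Hpse2, Dner and Cdh18. In the Asic2 and Cadps regions both peaks had a false discovery rate of at most 5%.

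Control libraries 1 and 2 met at 5 regions that knockdown 2 also had. The highest was in Chl1, a neural cell adhesion gene, at chr6:103648882-103649771, where control 1 had 255 reads and a fold of 21.9, control 2 269 reads and a fold of 23.2, and knockdown 2 273 reads and a fold of 167. It was the deep peak with the highest fold in all 3 lists. The others were a pair in Dock2, an activator of Rac in blood cells, and 1 each in Mdga2 and 2210408I21Rik. One region, in Csmd2 at chr4:128141499-128143411, was called in control size3 (fold 10.7, 19 reads), knockdown 1 (4.81, 36 reads) and knockdown size3 (9.51, 12 reads).

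Skeletal genes were among the hosts. Of 19 long genes in a list of Wnt, BMP, TGF-beta and skeletal genes, 0, 1 and 4 had a deep peak in the control and 15, 6 and 16 in the knockdown libraries. Those of knockdown 1 and size3 are 78.9% and 84.2% of the list, beside 73.8% and 68.9% of all long genes. Knockdown 2 marked 31.6% beside 40.7%, and control 1, 2 and size3 marked 0%, 5.26% and 21.1% beside 11.3%, 2.54% and 22.9%. The density in knockdown 1 and size3 was lower than over all long genes, 4.65 and 4.21 per Mb beside 6.21 and 5.67, and the median gene had 2 and 1 peaks, the same as over all long genes. Sox5, a factor of cartilage formation, had 0, 1 and 2 control and 7, 7 and 6 knockdown peaks. Ctnnd2, a delta-catenin gene, had no control peak and 5, 1 and 7. Gli2, a transcription factor gene of Hedgehog signalling, had 7 in knockdown 1 and 1 in knockdown size3, while Gli3 had none in any library.

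Runx2 (chromosome 17, 44495987 to 44814797) had 0, 0 and 1 control and 4, 0 and 5 knockdown peaks. The peak of control size3 at chr17:44546327-44546949, with 15 reads and a fold of 7.10, lay within one of knockdown size3 at chr17:44546307-44547218, with 25 reads and a fold of 4.36. Knockdown 1 and knockdown size3 overlapped in Runx2 only at the Supt3 start described above. Macf1, the targeted gene (chromosome 4, 123349633 to 123687802), had 1 deep peak, in knockdown size3 at chr4:123664307-123665523 with 29 reads and a fold of 5.90. Its relative Dst, which encodes the spectraplakin dystonin, had 4 in knockdown 1 and 4 in knockdown size3 and none elsewhere. These libraries do not measure transcripts, so the knockdown itself was not checked here.

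Other gene lists differed in how densely they were marked. Of 65 long genes of transcription factors and chromatin proteins, 56 had a deep peak in knockdown 1 (86.2%, beside 73.8% of all long genes) and 51 in knockdown size3 (78.5%, beside 68.9%), with 9.24 and 7.13 peaks per Mb, 1.49 and 1.26 times the value over all long genes. Knockdown 2 marked 24 of them (36.9%, beside 40.7%) at 0.94 times its mean density, and control 1 marked 5 (7.69%, beside 11.3%) at 0.69 times. The 56 genes of the cytoskeleton and its regulators had 6.94 and 7.82 per Mb, 1.12 and 1.38 times. By contrast, the 49 genes of neural adhesion and guidance had 3.30 and 2.98 per Mb, 0.53 times in both libraries. The medians per gene were 3 and 2, 2 and 2, and 1 and 1 in the 3 lists, beside 2 and 1 over all long genes.

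The 26 large genes at common fragile sites divided the libraries. In knockdown 1 and knockdown size3 they had 0.47 and 0.46 times the density of all long genes, in knockdown 2 1.06 times and in control 1 1.78 times. In the 48 genes of ion channels and neurotransmitter receptors, control 1 had 20 deep peaks at 2.00 times its mean, and knockdown 1 and size3 had 0.94 and 0.98 times. These lists hold genes of unequal length, with a median deep interval of 1177 kb in the fragile-site list and 341 kb in that of transcription factors, and density moved with length in the same libraries.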

How the data were processed

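Peaks were called in 6 anti-MACF1 immunoprecipitates of MC3T3-E1 cells, 3 control and 3 knockdown, grouped by their titles. The submitters' processing notes name cutadapt, Bowtie2 and GRCm38. Per the file headers, MACS 1.4.2 compared each immunoprecipitate with its own input (band width 300 bp, p cutoff 1e-05, 1 read per position). The deposited read count of a peak is in whole reads after duplicate removal. The deposited fold enrichment is a ratio over local input background. The deposited score is −log10 of the caller's p-value times 10. The deposited false discovery rate is in percent. All of these describe single peaks and were used only within a list.

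Gene spans came from the RefSeq table of GRCm38.p6. A peak was assigned to each long gene in which its summit lay deep, and 12, 2 and 12 peaks of knockdown 1, 2 and size3 had more than 1 host. Such a peak was counted for each of its hosts in the numbers per gene and of marked genes. Starts, strands and sequences came from the RefSeq promoter windows of the same build. Peaks of different libraries were merged where they overlapped by at least 1 bp. Group differences were tested by exact two-sided permutation over 20 assignments, and shares were given Wilson 95% intervals in scipy 1.17.1. The counting was tested on simulated data. The members, gene lists and the rule for named genes were chosen with earlier results of these data known. The rule took, among others, the 5 genes with the most deep peaks per library, the 10 with the most over all libraries and per Mb, the 5 longest without a peak, up to 4 per list, and genes and regions shared within groups. Gli2, Gli3 and Dst were added after their values were seen. Of 573 list entries, 569 matched a gene and 391 a long gene. Exons, introns and the sequence of the peaks were not analysed here. A few genes picked this way are left out of the text.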

Additional observations from a re-analysis of the deposited data

How the results depend on the processing

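The difference in deep peak number kept its direction under 14 of 15 alternatives and reversed to -1.68 with equal list lengths. The 2 shares kept their direction under every alternative run; the number of marked genes did so under all but equal list lengths (-1.50, added after seeing the data). No between-group p fell below 0.1, the smallest that 20 assignments give. The replicate labels 1, 2 and size3 gave correlations of gene-level deviations of -0.06, 0.17 and 0.29, not all above 0.1, so the labels were not taken to pair the libraries, although the size3 pair also had like redundant rates. With the replicate block, the values were unchanged at 3.71, -4.78, -10.3 and 2.76, each with a sign-flip exact p of 0.25, the smallest that 8 assignments give. Regions in at least 2 knockdown libraries numbered 18 at a score of at least 70, 39 in genes over 500 kb and 2 to 124 with 1 library left out. Regions in at least 2 control libraries numbered 4, 3 and 0 to 7 under the same settings. Control 2, with 26 deep peaks, limits every value of its own.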
